A study of Mus musculus with 4 samples.

Results

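Neuropeptide Y and cholecystokinin are the peptides of 2 signalling systems of the cerebral cortex. The genes described here are the peptide genes Npy and Cck, the neuropeptide Y receptor genes Npy1r, Npy2r and Npy5r, and Cckbr, the gene of the main cholecystokinin receptor of the brain. They were chosen by gene symbol, and all 6 were found among the 24100 genes of the count tables. RNA bound to EGFP-tagged ribosomes (IP) was compared with the RNA of the whole tissue (Input). All libraries came from the prefrontal cortex of untreated adult male Crh-IRES-Cre mice, whose Crh locus also gives rise to Cre recombinase. The Input was 1 library and the IP were 3 libraries, each made from 5 pooled males. The sources used here do not give how the EGFP tag reached the cells or whether each IP had animals of its own, so the tests below speak of these libraries and their spread, which may be technical.

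Neuropeptide Y is released by cortical interneurons, among them somatostatin cells and neurogliaform cells, and acts on receptors that couple to inhibitory G proteins. Cholecystokinin is made in the cortex by a class of GABAergic basket cells that also carry the cannabinoid receptor CB1, and its gene is also transcribed in many pyramidal neurons. Its receptor in the brain couples mainly to Gq, which activates phospholipase C. Both peptides are cut from larger precursors and amidated at their ends.

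The Input library had 14474529 counts, the IP libraries had 10031072 to 23548375, and 14636 genes were tested. Levels are counts relative to library size (CPM), scaled by a TMM factor per library, and a single count is worth 0.0436 to 0.107 CPM. The level of Crh was 1.32 CPM (Input) against 501, 174 and 193 CPM (IP 1, 2 and 3). The cortical excitatory gene Slc17a7 was found in the Input at 633 CPM. The summed level of 8 markers of GABAergic neurons was 653 CPM (Input) against 4048, 3078 and 3921 CPM (IP 1, 2 and 3), and that of 12 markers of excitatory neurons was 2845 against 933, 1538 and 1096 CPM. In such pooled tissue a change in the number of cells and a change in RNA per cell cannot be told apart.

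Of the 6 genes, 0 differed between IP and Input by edgeR's quasi-likelihood test at an adjusted p under 0.05, beside 0.458% of all tested genes (0.41% higher and 0.0478% lower in IP). At an unadjusted p under 0.05 there were 3 (Npy, Npy1r and Npy2r), beside 4.43% of tested genes. DESeq2 called 2 (Npy and Npy1r), beside 1.96% of the 9244 genes to which it gave an adjusted p, and limma-voom called 0, beside 0.348%. In 4 of the 6 all 3 IP libraries lay above the Input, as in 19.7% of tested genes. Those 4 were Npy, Npy1r, Npy2r and Cck, but for Cck this held with TMM and RLE factors alone, and only IP 1 lay above the Input with upper-quartile factors or library totals. In Cckbr all 3 lay below, as in 24.1% of tested genes, and in Npy5r the IP libraries fell on both sides of the Input. The genes of the neuropeptide Y system thus stood above the Input, with Npy5r divided, whereas Cck differed little and its receptor was lower.

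**Figure D1:**
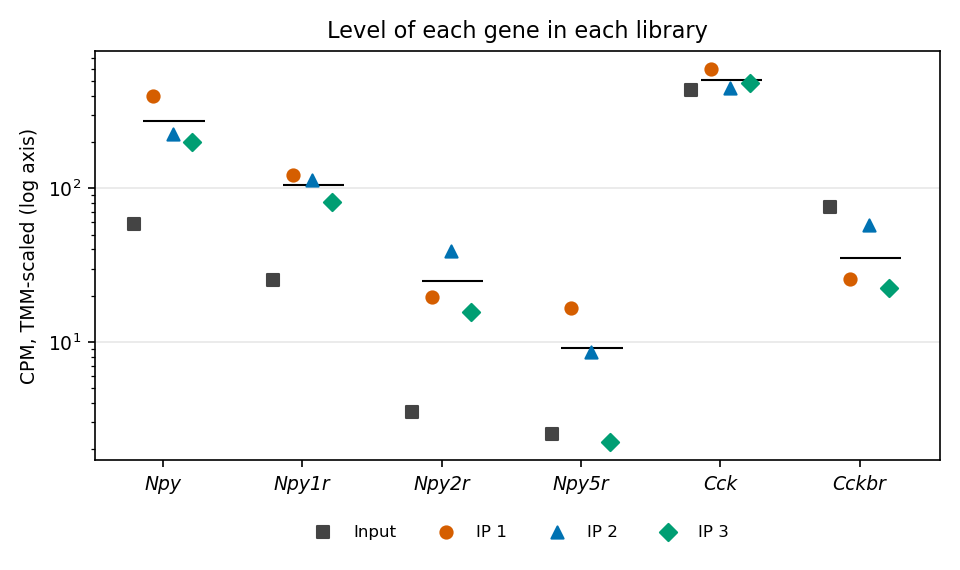
Level of each of the 6 genes (CPM, TMM-scaled, log axis) in the Input (squares) and in IP 1, 2 and 3 (circles, triangles and diamonds), with a line at the mean of the 3 IP libraries. On this scale all IP libraries lie above the Input for Npy, Npy1r, Npy2r and Cck (for Cck only IP 1 does with library totals or upper-quartile factors) and below it for Cckbr, and for Npy5r IP 3 (2.24 CPM) lies just under the Input (2.52 CPM).

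Npy (Entrez 109648) lies on the plus strand of chromosome 6 from 49822710 to 49829507 in GRCm38, and Cck (Entrez 12424) on the minus strand of chromosome 9 from 121489824 to 121495694. Both are protein coding and share no exon base with another gene in GENCODE M21. The 250 bases before the annotated start of each peptide gene are shown from the RefSeq table of GRCm38.p6, since the IP stood well above the Input for Npy and near it for Cck. They span chr6:49822460-49822709 on the plus strand for Npy and chr9:121495695-121495944 on the minus strand for Cck. Capitals mark every match on either strand to any of 3 motifs. The CRE half-site, spelled TGACG, is known from genes that answer to cyclic AMP. The TATA box, spelled TATAAA, is a core element of some promoters at which the transcription machinery assembles. The GC box, spelled GGGCGG, is the classic element of the factor Sp1.
Npy: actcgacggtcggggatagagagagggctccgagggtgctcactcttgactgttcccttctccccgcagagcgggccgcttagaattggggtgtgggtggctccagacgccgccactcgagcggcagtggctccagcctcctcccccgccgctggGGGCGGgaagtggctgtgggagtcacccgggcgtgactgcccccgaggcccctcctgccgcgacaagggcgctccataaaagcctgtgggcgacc
Cck: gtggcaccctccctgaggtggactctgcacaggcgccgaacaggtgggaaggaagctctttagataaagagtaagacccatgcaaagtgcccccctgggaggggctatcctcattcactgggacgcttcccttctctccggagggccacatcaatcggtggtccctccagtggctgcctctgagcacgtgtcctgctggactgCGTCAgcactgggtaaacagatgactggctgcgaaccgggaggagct

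The Npy stretch held 1 GC box, 95 bases before the start. The Cck stretch held 1 CRE half-site, read on the other strand as CGTCA, 47 bases before the start. Neither held the TATA box as spelled here. Among 32851 promoter windows of the same length a CRE half-site was found in 17.8%, a TATA box in 12.4% and a GC box in 32.7%. The E-box, spelled CANNTG with N as any base, was also searched and is not in capitals. The Cck stretch held 3 E-boxes and the Npy stretch 0, and 66.2% of the windows held the motif. The share of G and C was 69.2% for Npy and 60.0% for Cck, against a median of 52.4% over these windows. These matches describe the letters of the windows and were not measured as binding sites.

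Npy was counted 972 times in the Input (58.3 CPM) and 9109, 2101 and 2334 times in IP 1, 2 and 3 (397, 225 and 201 CPM). The groups did not overlap, and IP 1 was the highest library. The mean in IP was 274 ± 107 CPM (SD, n = 3), or 4.71 times the Input. The fitted log2 fold was 2.23 ± 0.54 (SE), which did not pass the threshold (adjusted p = 0.0936 by edgeR). A larger log2 fold was fitted for 4.36% of tested genes.

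This call depended on the number of IP libraries, the filter and the tool. The settings under which Npy passed also called more of all genes than the main fit did. By edgeR the adjusted p was 0.0284 without IP 1, 0.0116 without IP 2 and 0.0129 without IP 3, and it was 0.00232 with DESeq2 and 0.0115 without a filter on low counts. With limma-voom it was 0.233. Over these and the remaining alternatives the log2 fold of Npy ran from 1.85 to 2.41, so its size moved less than its adjusted p.

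Cck was the gene of the 6 with the most counts in every library, with 7255 in the Input and 13622, 4196 and 5601 in the IP. Its level was 435 CPM (Input) against 594, 449 and 483 CPM (IP 1, 2 and 3). On this scale each IP library lay above the Input, IP 2 by the least. The mean in IP was 508 ± 75.8 CPM (SD, n = 3), and the log2 fold of 0.23 ± 0.38 (SE) was smaller than its error (adjusted p = 0.9999 by edgeR). With library totals in place of TMM factors it turned to -0.045, a scaling that moved the median of all genes by -0.27.

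The 3 IP libraries were close to each other for Cck. Its coefficient of variation over them was 14.9%, against a median of 51.5% over all tested genes, and 91.1% of genes varied more. Npy varied by 39.0%, Npy1r by 20.1%, Npy2r by 50.8%, Cckbr by 55.3% and Npy5r by 78.7%. The genes with few counts were thus among the more variable of the 6.

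Npy1r (Entrez 18166, chromosome 8, 66697192 to 66706792, plus strand) encodes the Y1 receptor, a G-protein-coupled receptor found on postsynaptic neurons. The Input held 25.5 CPM of it (425 counts), and IP 1, 2 and 3 held 121, 113 and 81.3 CPM (2785, 1056 and 943 counts). The groups did not overlap, and IP 3 was the lowest of the IP. The mean in IP was 105 ± 21.1 CPM (SD, n = 3), and the log2 fold of 2.05 ± 0.66 (SE) did not pass by edgeR (adjusted p = 0.447). DESeq2 gave a log2 fold of 2.06 with an adjusted p of 0.0146, and over all alternatives the adjusted p ran from 0.0146 to 0.743.

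Npy2r (Entrez 18167, chromosome 3, 82538383 to 82548084, minus strand) encodes the Y2 receptor, known as a presynaptic receptor that limits transmitter release. It had 58 counts in the Input and 452, 367 and 181 in the IP, or 3.48 CPM against 19.7, 39.2 and 15.6 CPM. All IP libraries lay above the Input, and here IP 2 was the highest. The mean in IP was 24.8 ± 12.6 CPM (SD, n = 3), and the log2 fold of 2.83 ± 1.22 (SE) was the largest of the 6 genes, with the adjusted p at 0.973 by edgeR and 0.0921 by DESeq2.

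Npy5r (Entrez 18168, chromosome 8, 66679965 to 66688128, minus strand) encodes the Y5 receptor, known for its part in feeding. It was counted 42 times in Input and 383, 81 and 26 times in IP 1, 2 and 3. The level in IP 3, 2.24 CPM (95% exact Poisson interval 1.46 to 3.28, counting error only), was not distinguishable by counting error from the 2.52 CPM of the Input (1.81 to 3.40). IP 1 and IP 2 lay above it at 16.7 and 8.66 CPM. The mean in IP was 9.20 ± 7.24 CPM (SD, n = 3), and the log2 fold was 1.87 ± 1.72 (SE, adjusted p = 0.9999 by edgeR). Without IP 1 it was 1.09.

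Npy1r and Npy5r are neighbours that point away from each other, with 9064 bases between their annotated starts. Both were highest in IP 1 and lowest in IP 3 among the IP libraries, over ranges of different size. Npy5r was at 16.7, 8.66 and 2.24 CPM in IP 1, 2 and 3, whereas Npy1r was at 121, 113 and 81.3 CPM, each above its Input. Centred on its own mean over the 4 libraries, the log2 level of Npy1r lay within 0.41 of that of Npy in each library, and within 1.28 of that of Npy5r.

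Cckbr (Entrez 12426, chromosome 7, 105425731 to 105470898, plus strand) encodes the cholecystokinin B receptor, which also binds gastrin. It had 1267 counts in the Input and 586, 538 and 260 in the IP, or 76.0 CPM against 25.5, 57.5 and 22.4 CPM. All IP libraries lay below the Input, IP 2 by the least. The mean in IP was 35.2 ± 19.4 CPM (SD, n = 3), and the log2 fold of -1.11 ± 0.73 (SE) did not pass (adjusted p = 0.9999 by edgeR). Without IP 2 the log2 fold was -1.66.

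The excitatory markers also had their highest IP level in IP 2, at 1538 CPM summed over 12 genes. In 10 of these 12 all 3 IP libraries lay below the Input, and none of the 12 was at 0 in all libraries. The count of Cckbr relative to Slc17a7, the vesicular glutamate transporter of cortical excitatory neurons, was 0.120 (Input) against 0.127, 0.143 and 0.105 (IP 1, 2 and 3). The Input lay inside the range of the IP. The part of excitatory RNA in the level of Cckbr was not tested.

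**Figure D2:**
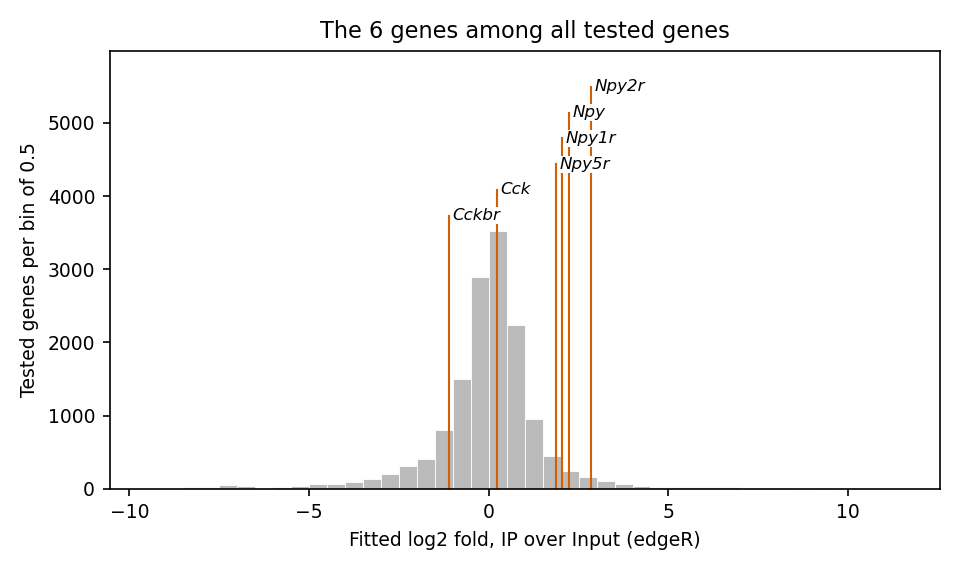
Histogram of the fitted log2 folds of IP over Input (edgeR, x axis) for the 14636 tested genes in bins of 0.5 (y axis, genes per bin), with lines at the 6 genes. Npy, Npy1r, Npy2r and Npy5r stand in the right tail between 1.87 and 2.83, Cck (0.23) near the centre and Cckbr (-1.11) to the left.

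The 5 other genes of both families that were looked up had no counts. The gene of gastrin was not among them. The peptide genes Pyy and Ppy and the receptor genes Npy4r, Npy6r and Cckar were at 0 in all 4 libraries. A count of 0 allows up to 3 counts, or 0.180 CPM (Input) and 0.131, 0.321 and 0.259 CPM (IP 1, 2 and 3), for counting error only. Npy, Cck and the 4 receptors above were the only genes with reads among the members of both families looked up here.

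Levels of different genes were compared per kb of exon, from the union of the exons of each gene in GENCODE M21. In the Input the order was Cck (333 CPM per kb), Npy (103), Cckbr (26.5), Npy1r (7.38), Npy2r (1.03) and Npy5r (0.985). In the IP it was Npy (485 ± 189 CPM per kb, SD, n = 3), Cck (390 ± 58.1), Npy1r (30.5 ± 6.11), Cckbr (12.3 ± 6.79), Npy2r (7.34 ± 3.73) and Npy5r (3.60 ± 2.83). Among neighbours in this order, the ranges of mean ± SD overlapped for Npy and Cck, Cckbr and Npy2r, and Npy2r and Npy5r. These ranges leave out that the genes were measured in the same libraries. Cckbr was above Npy2r in each IP library (8.92 against 5.82, 20.1 against 11.6 and 7.83 against 4.61 CPM per kb). Npy2r was below Npy5r in IP 1 (5.82 against 6.53) and above it in IP 2 and IP 3.

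Npy1r and Cckbr changed places. In the Input Cckbr was the higher of these 2 receptors, whereas Npy1r was higher in IP 1 (35.1 against 8.92 CPM per kb), IP 2 (32.7 against 20.1) and IP 3 (23.5 against 7.83). The order of Npy and Cck depended on the length used. With the union of exons Npy was above Cck in IP 1 (701 against 455 CPM per kb) and IP 2 (397 against 344) and below it in IP 3 (355 against 370). With the longest transcript of each gene, an alternative chosen after the values were seen, Cck was at 743, 561 and 604 CPM per kb and above Npy in every library.

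**Figure D3:**
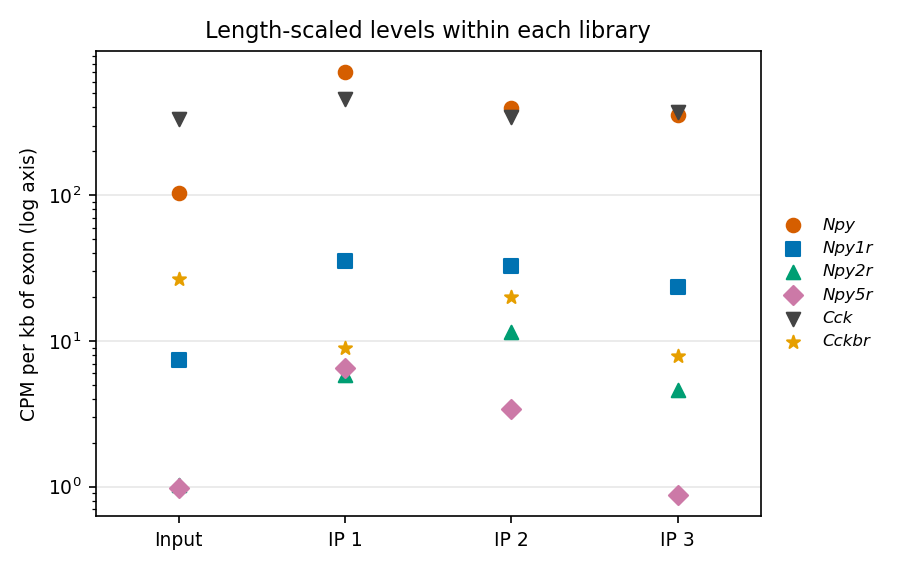
Length-scaled level (CPM per kb of the union of exons, log axis) of the 6 genes in the Input and the 3 IP libraries. Cckbr (stars) is above Npy1r (squares) in the Input and below it in IP 1, 2 and 3, and the peptide genes Npy (circles) and Cck (inverted triangles) are the highest in all libraries.

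Ratios of counts within a library do not depend on how libraries are scaled. With 1 Input and 3 IP libraries the smallest p of the exact permutation test (two-sided) is 0.25, so none of 8 ratios could reach 0.05. The ratio of Npy to Cck was 0.134 (Input) against 0.669, 0.501 and 0.417 (IP 1, 2 and 3), a log2 change of 1.95 (exact permutation p = 0.25, adjusted p = 0.40 over 8 ratios). It was higher in 3 of 3 IP libraries. Npy relative to Sst, the gene of somatostatin, was 0.176 in the Input and 0.561, 0.387 and 0.270 in the IP, again higher in 3 of 3. Npy therefore stood further above the Input than Sst did in each IP library.

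Against the GABA-synthesis gene Gad1 both peptide genes were lower in the IP. The ratio of Npy to Gad1 was 0.618 (Input) against 0.405, 0.337 and 0.218 (IP 1, 2 and 3). That of Cck to Gad1 was 4.61 in the Input and 0.606, 0.674 and 0.524 in the IP. The second difference, -2.95 on the log2 scale, was wider than the first, -0.99, and in both all 3 IP libraries lay below the Input.

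Against the excitatory gene Slc17a7 both Cck and Npy1r were higher in the IP. The ratio of Cck to Slc17a7 was 0.688 (Input) against 2.95, 1.11 and 2.26 (IP 1, 2 and 3). That of Npy1r to Slc17a7 was 0.0403 in the Input and 0.604, 0.280 and 0.381 in the IP. In both IP 2 was the lowest of the IP and still above the Input. The ratio of Npy2r to Npy1r was 0.136 in the Input and 0.162, 0.348 and 0.192 in the IP, with IP 2 the highest. Over the 8 ratios the exact permutation p ran from 0.25 to 1 and the adjusted p from 0.40 to 1.

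**Figure D4:**
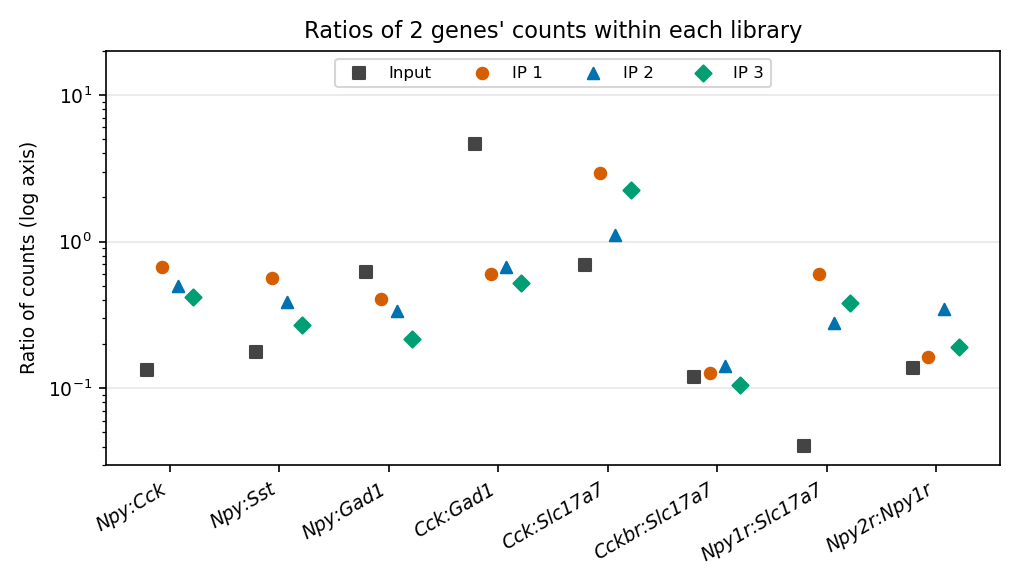
Ratio of the counts of 2 genes (log axis) within the Input (squares) and within IP 1, 2 and 3 (circles, triangles and diamonds) for 8 pairs. The Input lies below all IP libraries for Npy:Cck, Npy:Sst, Cck:Slc17a7, Npy1r:Slc17a7 and Npy2r:Npy1r, above them for both ratios to Gad1, and among them for Cckbr:Slc17a7.

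Markers of interneurons known to make neuropeptide Y were divided. Of 8 such genes edgeR called 0, DESeq2 1 and limma-voom 0, and 3 had an unadjusted p under 0.05. Their median log2 fold was -0.092, against 0.083 over all tested genes, and in 4 all IP libraries lay above the Input and in 3 below. Sst had a level of 332 CPM (Input) against 708, 581 and 746 CPM (IP 1, 2 and 3). Reln, the gene of the secreted protein reelin, had 40.5 CPM (Input) against 141 ± 8.40 CPM (IP, SD, n = 3), a log2 fold of 1.80 ± 0.56 (SE) with an adjusted p of 0.388 by edgeR and 0.0181 by DESeq2. Nos1, the gene of neuronal nitric oxide synthase, was at 59.6 and 75.7 ± 8.53 CPM. The 3 genes that lay below were Lamp5, Id2 and Tacr1, named after their values were seen. Lamp5, a membrane protein gene of neurogliaform cells, had 126 CPM (Input) against 26.2, 39.6 and 36.8 CPM (IP). Npy and this marker thus stood on opposite sides of the Input. Ndnf, also named after its values were seen, lay above the Input in every IP library, as Npy did. It had 8.15 CPM (Input) against 10.3, 14.1 and 9.40 CPM (IP), and its log2 fold of 0.47 ± 1.30 (SE) was smaller than its error.

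Of 8 markers of interneurons known to make cholecystokinin, 4 rose by edgeR, 4 by DESeq2 and 3 by limma-voom. Over all tested genes 0.41% were higher in IP by edgeR. Which cells gave the RNA of these markers was not tested. Their median log2 fold over 7 tested was 2.45. Cnr1, the gene of the CB1 receptor, rose from 221 CPM to 1535, 1005 and 1082 CPM in IP 1, 2 and 3, a log2 fold of 2.45 ± 0.41 (SE, adjusted p = 0.00438 by edgeR). Vip, Htr3a and Adarb2 also rose, with log2 folds of 6.36, 5.78 and 4.22, and the call of Htr3a ended with limma-voom (adjusted p = 0.0876). In the other direction Calb1, the gene of the calcium buffer calbindin, had 141 CPM (Input) against 22.9, 81.8 and 62.5 CPM (IP), below the Input in every IP library with a log2 fold of -1.34 that did not pass. Slc17a8, a vesicular glutamate transporter gene, had 27 counts in the Input, 0 in IP 1 and IP 2 and 92 in IP 3, and the keratin gene Krt73 had 5 counts in the Input and 0 in every IP library. Cck itself was not on this list, and its log2 fold of 0.23 lay below those of the 4.

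**Figure D5:**
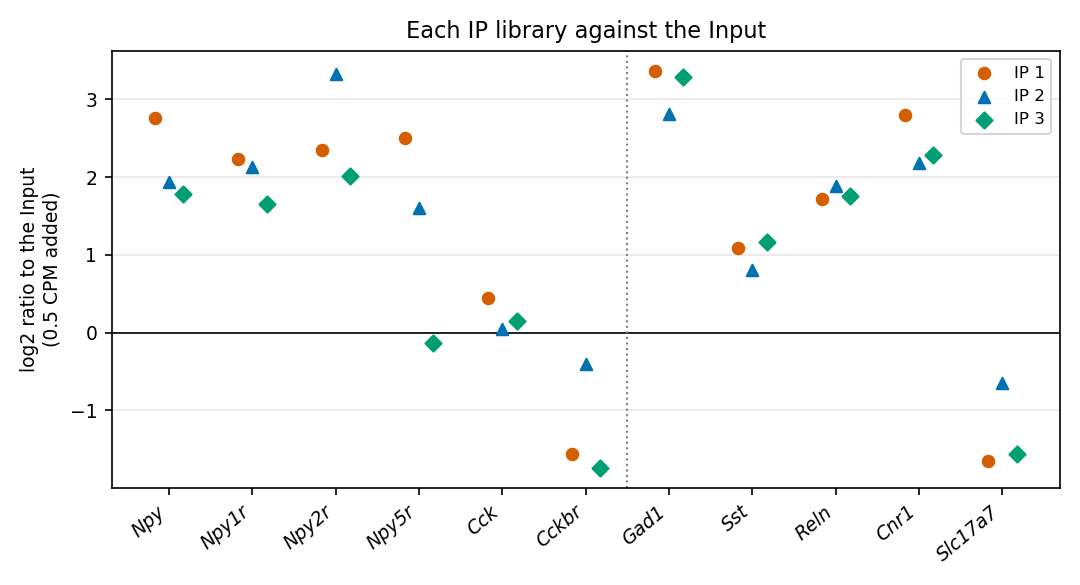
Log2 ratio of each IP library to the Input (0.5 CPM added, y axis) for the 6 genes, left of the dotted line, and for marker genes of GABAergic (Gad1, Sst, Reln, Cnr1) and excitatory (Slc17a7) neurons. Npy, Npy1r and Npy2r lie above 1.6 in all 3 IP libraries, Cck lies between 0.044 and 0.45, and Cckbr has its values next to those of Slc17a7.

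Among the pan-GABAergic markers 4 of 8 rose by edgeR, 8 by DESeq2 and 4 by limma-voom, with a median log2 fold of 2.90, and all 8 lay above the Input in every IP library. Those called by edgeR were Gad1 (3.18), Gad2 (2.38), Dlx1 (4.22) and Dlx6os1 (3.504). Of 12 excitatory markers 2 fell by edgeR, Nrn1 (log2 fold -3.04) and Nrgn (-2.11), and the median was -1.09. The log2 folds of Npy, Npy1r and Npy2r lay nearer the first list than the second. The markers of cholecystokinin interneurons (median 2.45) and of endothelial cells (median 3.06) stood on the same side as the first list. The log2 fold of Cckbr (-1.11) was close to the median of the second list. It was also close to the medians of the astrocyte (-1.14) and oligodendrocyte (-1.15) markers.

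Genes whose products cut, amidate, sulfate or degrade these peptides gave no calls. Of 10 such genes edgeR, DESeq2 and limma-voom each called 0, 1 had an unadjusted p under 0.05, and the median log2 fold was 0.55. Pam, whose enzyme amidates the ends of both peptides, had 111 CPM (Input) against 305, 202 and 303 CPM (IP 1, 2 and 3), all above the Input (log2 fold 1.29 ± 0.47, SE, adjusted p = 0.681 by edgeR). The convertase gene Pcsk2 had 312 CPM (Input) against 302 ± 19.8 CPM (IP, SD, n = 3), and Cpe, the gene of carboxypeptidase E, had 475 against 494 ± 72.1 CPM. For both the Input lay within the SD of the IP.

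The signalling partners of the receptors also gave no calls. Of 10 genes of the inhibitory G-protein pathway and 8 of the Gq pathway, edgeR, DESeq2 and limma-voom each called 0, and 0 had an unadjusted p under 0.05. Their median log2 folds were 0.11 and 0.049. The G-protein subunit gene Gnai1 had 395 CPM (Input) against 571 ± 101 CPM (IP, SD, n = 3), and Gnao1 had 1812 against 2004 ± 141 CPM. In the Gq pathway the phospholipase gene Plcb1 was at 424 and 567 ± 61.1 CPM, and the protein kinase C gene Prkcb at 2590 and 1955 ± 278 CPM.

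Endothelial markers stood above the Input as did Npy, Npy1r and Npy2r. Their summed level over 8 genes was 33.6 CPM (Input) against 126, 465 and 215 CPM (IP 1, 2 and 3), with IP 2 the highest. In 7 of the 8 all IP libraries lay above the Input, and none was at 0 in all libraries. Flt1, a receptor for vascular growth factors, had 3.06 CPM (Input) against 44.7, 94.8 and 16.0 CPM (IP), and the glucose transporter gene Slc2a1 had 22.8 CPM against 49.9, 307 and 103 CPM. The library order differed among the 8, since the junction genes Cldn5, Pecam1 and Cdh5 were lowest of the IP in IP 2, at 1.82, 4.92 and 5.24 CPM, and highest in IP 3, at 5.86, 30.9 and 24.997 CPM. Among the 8, edgeR called 0, DESeq2 2 and limma-voom 0, and 4 had an unadjusted p under 0.05. The part of vascular RNA in the levels of Npy, Npy1r and Npy2r was not tested.

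For each of the 6 genes the most similar patterns over the 4 libraries were sought among 10187 genes. Likeness was the largest difference in any library between log2 levels (0.5 CPM added) centred on each gene's mean. For Npy the nearest were the RNA-binding protein gene Rbms3 (0.22), the efflux transporter gene Abcb1a (0.22) and Dner (0.23), and 43 genes lay within 0.5. For Npy1r they were Sytl5 (0.098), Racgap1 (0.20) and Slc44a5 (0.20), with 94 genes within 0.5. For Npy2r they were Cort, the gene of the somatostatin-related peptide cortistatin (0.27), Siah3 (0.34) and Naf1 (0.38), with 10 genes within 0.5. Cort had 1.20 CPM (Input) against 8.63, 11.87 and 4.74 CPM (IP), highest in IP 2 as was Npy2r.

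For Npy5r the nearest were the protease gene Ctso (0.29), Bach1 (0.30) and Rad51c (0.33), with 26 genes within 0.5. The pattern of Cck was common, since 2392 genes lay within 0.5 of it, led by Emc10 (0.037), Akap17b (0.042) and Cfap36 (0.043). Cckbr was nearest to Gpn3 (0.046), Mpped1 (0.13) and B3glct (0.14), with 136 genes within 0.5. With 4 libraries such likeness is a description of these samples only.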

How the data were processed

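Raw read counts per gene were deposited by the authors, 1 library per file, with an Entrez identifier and a symbol per gene, per the file headers. The submitters' processing notes name STAR 2.0.0e, HTSeq and the mouse build mm10, and the names of the tables hold the word subread, so the counter is not settled. The annotation, the strand of counting and the treatment of multiply mapped reads are not given in the sources used here. Genes without a symbol (9) took at most 0.0221% of a library.

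Counts were analysed in R 4.3.3 with edgeR 4.0.16: filterByExpr (minimum count 10), TMM factors, and a two-sided quasi-likelihood F test of IP against Input over 14636 genes with Benjamini-Hochberg adjustment and a threshold of 0.05. The standard error of a log2 fold is its size over the root of the F statistic. The lone Input was assumed to vary like the 3 IP libraries, which gave 2 residual degrees of freedom and a biological coefficient of variation of 0.787. The code of the fit was tested on simulated counts that varied less between libraries than these data, so that test does not give its power here. Alternatives were DESeq2 1.42.0, limma-voom (limma 3.58.1), other scalings, other filters, a robust prior and leaving out each IP library.

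The 6 genes, the gene lists and the tests were chosen with earlier results of these data known. From each list the called members and up to 3 of the most abundant others were to be named, and not all of these are given. Genome positions and exon lengths come from GENCODE M21 (GRCm38). Promoter sequences come from RefSeq (GRCm38.p6), where all 6 genes matched. Figures were drawn with matplotlib 3.10.9.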

Additional observations from a re-analysis of the deposited data

How the results depend on the processing

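The 67 genes called between IP and Input were 108 without a filter on low counts and 181 with DESeq2. They were 90 to 210 when an IP library was left out. There were fewer with limma-voom (51) and when genes needed 5 CPM on average (60). The split of higher against lower genes, 60 to 7, was 51 to 15 with upper-quartile factors and 50 to 15 with library totals, which moved the median of all genes by -0.22 and -0.27. Npy passed the threshold without a filter (log2 fold 2.24), with DESeq2 (2.24) and without each IP library in turn (1.85 to 2.41), and in the other 6 alternatives it did not. Npy1r passed with DESeq2 only (2.06). Cck turned to -0.045 with library totals. The cause of these changes was not tested. Npy2r, Npy5r and Cckbr kept their direction and passed in none of 11 alternatives, except that DESeq2 gave Npy5r no adjusted p. The log2 change of the ratio of Cckbr to Slc17a7 (0.046) ran from -0.056 to 0.17 when an IP library was left out, and the other 7 ratios kept their sign. For 24 of the other genes named with values the alternatives were also run. Of these, Cpe turned to -0.16 with upper-quartile factors, -0.22 with library totals and -0.056 when genes needed 5 CPM on average. Without IP 3 it turned to -0.073 (up to 0.11 without another IP library). Gnao1 turned to -0.071 with upper-quartile factors and -0.13 with library totals. No paired analysis was possible because the Input is a single library, so the groups share fewer than 2 replicate numbers. Among the 6 genes, Npy5r and Npy2r had the fewest counts, down to 26 for Npy5r (IP 3) and 58 for Npy2r (Input). The counting intervals of Npy2r in the Input (2.64 to 4.49 CPM) and in its lowest IP library (13.4 to 18.0 CPM) did not overlap.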

Other observations

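Most glial and microglial markers stood lower in the IP, with no gene called. Each IP library was under the Input for 7 of 8 astrocyte markers (summed level 2683 CPM in Input, against 1659, 2811 and 1805 CPM in IP 1, 2 and 3), and the astrocyte sum of IP 2 was above the Input. The same held for 5 of 8 oligodendrocyte markers (759 CPM against 329, 535 and 481 CPM). Of the other oligodendrocyte genes, Mag lay above the Input in every IP library (5.28 CPM against 8.80, 12.7 and 10.3 CPM), and Mbp and Mobp fell on both sides of it. Each IP library was also under the Input for 7 of 8 microglial markers (75.7 CPM against 11.02, 5.02 and 21.0 CPM). Here edgeR, DESeq2 and limma-voom each called 0 genes, and by edgeR 1 astrocyte, 1 oligodendrocyte and 2 microglial genes had an unadjusted p under 0.05. The astrocyte sum of IP 2 was mostly Slc1a2, at 2456 of 2811 CPM. Slc1a2, Slc1a3, Aldoc and Aldh1l1 were each highest of the IP in IP 2. Gfap, Aqp4, Gja1 and S100b were each highest of the IP in IP 1 or IP 3.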
